A study of Mus musculus with 8 samples.

Results

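The 10 genes described here encode transcription factors and a coactivator that drive adipogenesis, the formation of fat cells, and that keep mature fat cells differentiated: Pparg, Rxra, Ppargc1b, Cebpa, Cebpb, Cebpd, Ebf1, Ebf2, Zfp423 and Klf15. They were taken by gene name from the deposited expression table of 28295 genes, and all 10 were found in it and passed the filter on low values. Expression was measured by poly(A) RNA sequencing of epididymal white fat from male mice, in 8 libraries. The knockout group (4 libraries) was AdipoQ-Cre;Cul3-flox/flox, with both Cul3 alleles flanked by loxP sites and a Cre recombinase under the promoter of the adipocyte gene Adipoq. The WT group (4 libraries) was Cul3-flox/flox without Cre, so both groups carried the floxed alleles. Mice of both groups ate a Western diet, rich in fat and sugar, over 8 weeks and were fasted 6 h before collection; their age was not among the labels. Cullin 3, the product of Cul3, holds together ubiquitin ligases of 1 large family. This Cre acts in adipocytes, whereas the tissue also holds stromal, vascular and immune cells whose alleles it leaves intact. The comparison asks how the tissue's transcripts differ once Cul3 is deleted in fat cells.

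As background, fat cell differentiation runs through a cascade of these factors. C/EBPβ and C/EBPδ act early and induce Pparg and Cebpa, whose products then sustain each other and switch on the genes of lipid storage and of fat hormones. PPARγ, the receptor bound by the thiazolidinedione drugs, binds DNA as a pair with RXRα, while EBF1, EBF2, ZFP423 and KLF15 act upstream of or beside PPARγ. PGC-1β, the product of Ppargc1b, is a coactivator of nuclear receptors and of mitochondrial genes.

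Pparg has several promoters. The most downstream gives PPARγ2, the form typical of fat cells, and the table's value per gene does not separate it from PPARγ1. The 250 bases before that start are shown beside those before the starts of Cebpa and Cebpb, since the factors of these genes are known to act on each other's promoters. The sequences are from RefSeq on build GRCm38.p6, all on the plus strand, and capitals mark the C/EBP element TTGCNNAA on either strand.
Pparg, downstream start, chr6:115421816-115422065: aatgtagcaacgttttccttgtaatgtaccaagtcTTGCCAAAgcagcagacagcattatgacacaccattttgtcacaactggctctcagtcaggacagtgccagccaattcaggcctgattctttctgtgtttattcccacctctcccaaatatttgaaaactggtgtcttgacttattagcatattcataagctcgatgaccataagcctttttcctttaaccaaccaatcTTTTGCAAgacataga
Cebpa, chr7:35119043-35119292: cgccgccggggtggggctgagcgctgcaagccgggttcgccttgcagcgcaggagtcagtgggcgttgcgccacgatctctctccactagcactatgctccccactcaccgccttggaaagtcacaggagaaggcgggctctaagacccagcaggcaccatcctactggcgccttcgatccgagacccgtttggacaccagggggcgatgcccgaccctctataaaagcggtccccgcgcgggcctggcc
Cebpb, chr2:167688665-167688914: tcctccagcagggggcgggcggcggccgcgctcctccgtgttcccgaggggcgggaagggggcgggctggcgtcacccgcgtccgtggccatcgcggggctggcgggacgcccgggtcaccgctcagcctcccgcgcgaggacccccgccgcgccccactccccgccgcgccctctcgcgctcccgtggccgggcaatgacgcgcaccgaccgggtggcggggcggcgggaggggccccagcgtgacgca

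The downstream Pparg window held the C/EBP element at 2 places, 215 to 208 and 16 to 9 bases before the start. Windows were matched for 7 of the 10 genes, with 12 starts in all, and the other start that held this element was 1 of Zfp423. Of 32851 such windows over all genes, 9.56% held it. The perfect PPAR-RXR direct repeat (both core repeats with a spacer of any base) was in none of the 12 windows and in 0.0335% of all windows, and the palindromic EBF element was in none and in 0.779%. The core TGACNNNGC of the element bound by NRF2, a factor whose degradation needs a cullin 3 ligase, was in 2 of the 12 windows, 1 of Klf15 and 1 of Pparg, and in 10.2% of all windows. The GC box GGGCGG was in 7 of the 12 and in 32.7% of all windows. Every element was searched on both strands, and a match or its lack describes these letters only. The base composition differed, at 40.8% G or C before the downstream Pparg start, 66.4% before Cebpa and 81.6% before Cebpb.

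The deposited values are FPKM, fragments scaled by gene length and by the library's mapped fragments. Between 15161217 and 18724503 reads fell in listed genes in the KO-labelled libraries and between 17659662 and 19675025 in WT, as recovered from the steps of the FPKM values. Cul3 had 12.0 ± 1.28 FPKM in the knockout group and 11.2 ± 1.13 FPKM in WT (SD, n = 4 each; log2 fold change 0.09 ± 0.10, limma adjusted p = 0.520). Since the targeted transcript was not lower, the groups are called KO-labelled and WT, and each direction rests on the labels. The 2 groups were compared with limma on log2(FPKM + 0.5), adjusted over 14400 genes, and an adjusted p under 0.05 counted as a call. By that rule 30.4% of the tested genes were called, 1689 higher and 2683 lower in KO-labelled fat. With every library's FPKM brought to a total of 1000000 (total scaling) the split was 4226 higher and 1190 lower. With the recovered reads of listed genes as the denominator (read scaling) it was 4202 and 1267. Over all tested genes the median log2 fold change was 0.24 with total scaling, 0.20 with read scaling and -0.02 as deposited. Listed genes held 62.6% to 66.1% of the FPKM denominator in KO-labelled libraries and 74.1% to 78.7% in WT.

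Markers of several cell types differed between the groups. Of all tested genes, 18.6% fell and 11.7% rose. Of 10 adipocyte markers, 8 fell and none rose (9 lower and 0 higher at an unadjusted limma p under 0.05; 8 and 0 by voom), and their summed level was 3049 to 4402 FPKM in KO-labelled fat and 4966 to 8936 FPKM in WT. With either of the other scalings 5 of the 10 fell, without WT libraries 1 and 2 it was 2, and without KO-labelled library 2 or 3 or WT library 1 or 2 it was 5. Among macrophage markers, 4 of 9 rose and 0 fell (6 and 0 unadjusted; 4 and 0 by voom), with sums of 468 to 1075 FPKM in KO-labelled fat and 347 to 1117 FPKM in WT, which overlap. Without WT library 4 all 9 rose, and without WT libraries 1 and 2 it was 2. KO-labelled library 4 had the highest adipocyte and the lowest macrophage sum of its group, and WT library 4 the lowest adipocyte and the highest macrophage sum of its own. Endothelial markers fell in 6 of 7 cases. Stromal progenitor markers gave 1 rise (Ly6a) and 1 fall (Cd34) among 8, near the shares over all tested genes. With either of the other scalings 3 endothelial markers fell, and 2 stromal markers rose and 0 fell. Liver markers summed to 4.46 to 17.7 FPKM in KO-labelled fat and to 17.0 to 470.9 FPKM in WT, highest in WT library 2 and next in WT library 1. Of 6 liver markers, 4 fell and 0 rose (6 and 0 unadjusted; 0 and 0 by voom), and the groups did not overlap for 4. In single-library omissions 0 to 6 liver markers fell. Epididymis markers summed to 0.398 to 213.8 FPKM in KO-labelled fat, highest in library 1, and to 0 to 65.9 FPKM in WT, highest in library 2. Of 8 T and B cell markers, 1 passed the filter on low values, and it was not called. In bulk tissue, fewer cells of a type and less RNA per cell cannot be told apart.

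Among the 10 factors, Cebpa, Pparg and Ebf2 fell and Cebpd and Ebf1 rose in KO-labelled fat, while the other 5 did not pass the test. The changes of Cebpa, Pparg and Cebpd were called under all 22 alternative settings, and those of Ebf1 and Ebf2 under 13 and 11. The 5 calls among 10 genes stand beside 30.4% of all tested genes. By direction, 2 of 10 rose beside 11.7% of tested genes, and 3 of 10 fell beside 18.6%. The groups did not overlap for 4 of the 10, beside 31.2% of tested genes. The median log2 fold change of the 10 was -0.15, against -0.02 over all tested genes.

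**Figure D1:**
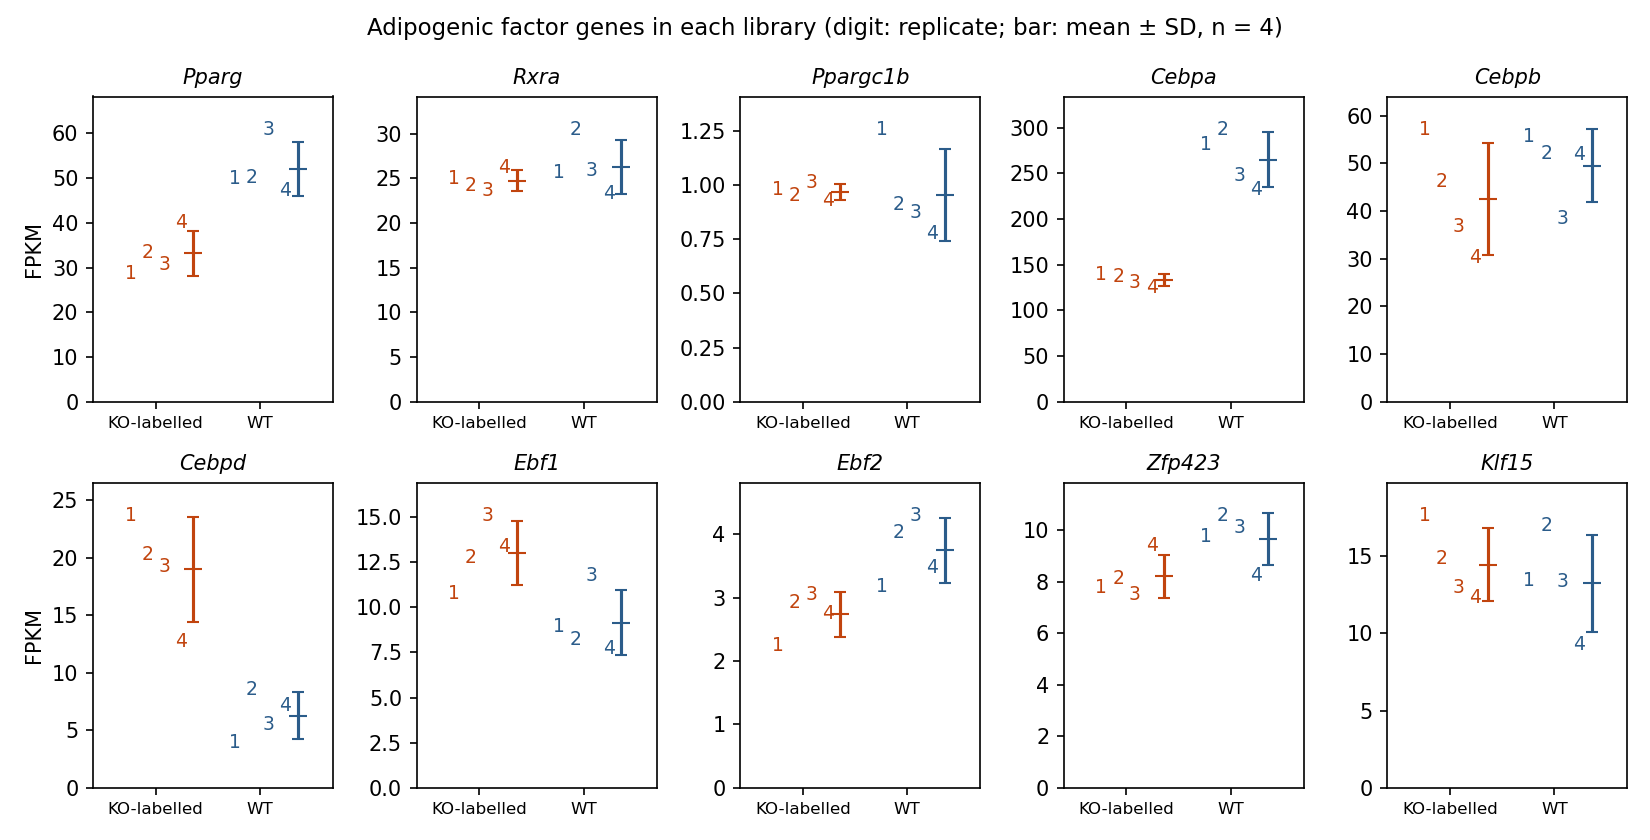
FPKM of each of the 10 factor genes (linear axis from 0, a scale for each gene) in the 4 KO-labelled and the 4 WT libraries. Digits are replicate numbers and bars the mean ± SD (n = 4). The groups are apart for Cebpa (133 and 265 FPKM on average), Pparg, Cebpd and Ebf2, and overlap for the other 6 genes.

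Pparg (ENSMUSG00000000440, chromosome 6, 115360951 to 115490399 on mm10) encodes the nuclear receptor PPARγ. Its level was 28.6, 33.4, 30.6 and 40.1 FPKM in KO-labelled libraries 1 to 4, against 49.9, 50.1, 60.9 and 47.3 FPKM in WT libraries 1 to 4. Every KO-labelled library was below every WT library, and the nearest were the replicates numbered 4 of both groups. The mean was 33.2 ± 5.0 FPKM in KO-labelled fat and 52.1 ± 6.05 FPKM in WT (SD, n = 4 each), a log2 fold change of -0.65 ± 0.12 (moderated SE; limma adjusted p = 0.00579). Total scaling gave -0.38 (limma adjusted p = 0.0423) and read scaling -0.40 (limma adjusted p = 0.0258).

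Rxra encodes the partner with which PPARγ binds DNA. It was at 25.0, 24.2, 23.6 and 26.3 FPKM in KO-labelled libraries 1 to 4, against 25.6, 30.5, 25.9 and 23.3 FPKM in WT. The groups overlapped throughout, and the KO-labelled libraries lay close together, with a coefficient of variation of 4.6% in KO-labelled fat and 11.5% in WT. The log2 difference was -0.08 ± 0.09 (limma adjusted p = 0.539), with a 95% interval of the KO-labelled to WT ratio from 0.818 to 1.09. Ppargc1b was the lowest of the 10 genes, with 76 to 128 reads per library. It had 0.981, 0.951, 1.01 and 0.931 FPKM in KO-labelled libraries 1 to 4, against 1.26, 0.910, 0.875 and 0.775 FPKM in WT. The WT libraries spread on both sides of the KO-labelled ones, and the ratio's 95% interval ran from 0.838 to 1.24 (log2 fold change 0.02 ± 0.12, limma adjusted p = 0.896).

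The 3 C/EBP genes, which encode leucine zipper factors that pair with each other, did not move alike. Cebpa (ENSMUSG00000034957, chromosome 7, 35119293 to 35121928, a single exon) encodes the late factor C/EBPα and was the highest of the 10 genes in both groups. It had 139, 137, 131 and 125 FPKM in KO-labelled libraries 1 to 4, against 282, 298, 248 and 233 FPKM in WT. The groups were far apart, and the KO-labelled libraries varied little. The mean was 133 ± 6.41 FPKM in KO-labelled fat and 265 ± 30.2 FPKM in WT (log2 fold change -0.99 ± 0.11, limma adjusted p = 0.000362). It was -0.71 with total scaling and -0.74 with read scaling, both called.

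Cebpd (ENSMUSG00000071637, chromosome 16, 15887286 to 15891031, also a single exon) encodes the early factor C/EBPδ, which glucocorticoids and acute-phase cytokines are known to induce. It had 23.7, 20.3, 19.2 and 12.7 FPKM in KO-labelled libraries 1 to 4, against 3.94, 8.58, 5.47 and 7.14 FPKM in WT. All KO-labelled libraries were higher than all WT libraries, with library 4 the lowest of the KO-labelled group. The mean was 19.0 ± 4.59 FPKM in KO-labelled fat and 6.28 ± 2.01 FPKM in WT. This was the largest change among the 10 genes, a log2 fold change of 1.54 ± 0.25 (limma adjusted p = 0.00268) and a KO-labelled to WT ratio of 2.90 with a 95% interval from 1.96 to 4.30. In single-library omissions it ran from 1.35 to 1.71. The opposite-strand gene Spidr overlaps 15% of the Cebpd exon and was higher too, at 1.73 ± 0.186 FPKM in KO-labelled fat and 0.948 ± 0.171 FPKM in WT (limma adjusted p = 0.00548). Whether counting used strand is not stated, and the part of shared reads was not tested.

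Cebpb encodes C/EBPβ, the other early factor. It had 57.2, 46.3, 36.7 and 30.3 FPKM in KO-labelled libraries 1 to 4, against 55.7, 52.0, 38.4 and 52.0 FPKM in WT. The groups overlapped, and the KO-labelled libraries were the more widely spread, with a coefficient of variation of 27.6% in KO-labelled fat and 15.4% in WT. It differed by -0.24 ± 0.20 on the log2 scale (limma adjusted p = 0.394). The ratio's 95% interval, 0.616 to 1.16, takes in a fall as well as a small rise. The opposite-strand gene Tmem189, at 10.6 FPKM in KO-labelled fat and 13.8 FPKM in WT, overlaps 20.7% of the Cebpb exon.

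The mixture of the 3 C/EBP transcripts differed as well, and a share within a library does not depend on how libraries are scaled. Of the summed FPKM of the 3 genes, Cebpa made up 68.8% ± 4.69 in KO-labelled fat and 82.6% ± 2.16 in WT (SD, n = 4 each). Cebpb made up 21.6% ± 3.52 and Cebpd 9.64% ± 1.42 in KO-labelled fat, against 15.4% ± 2.04 for Cebpb and 1.97% ± 0.600 for Cebpd in WT. The sum itself was 195 ± 22.4 FPKM in KO-labelled fat and 321 ± 34.5 FPKM in WT. KO-labelled library 4 had the largest Cebpa share of its group, 74.4%, and WT library 4 the smallest of its own, 79.7%. The Cebpb shares were nearest in the same libraries, at 18.0% in KO-labelled library 4 and 17.8% in WT library 4. Of all 14400 tested genes, 82.6% had groups that did not overlap when set over Cebpa, 11792 of them higher in KO-labelled fat. Cebpb itself was not called, so its larger share is no result about Cebpb.

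**Figure D2:**
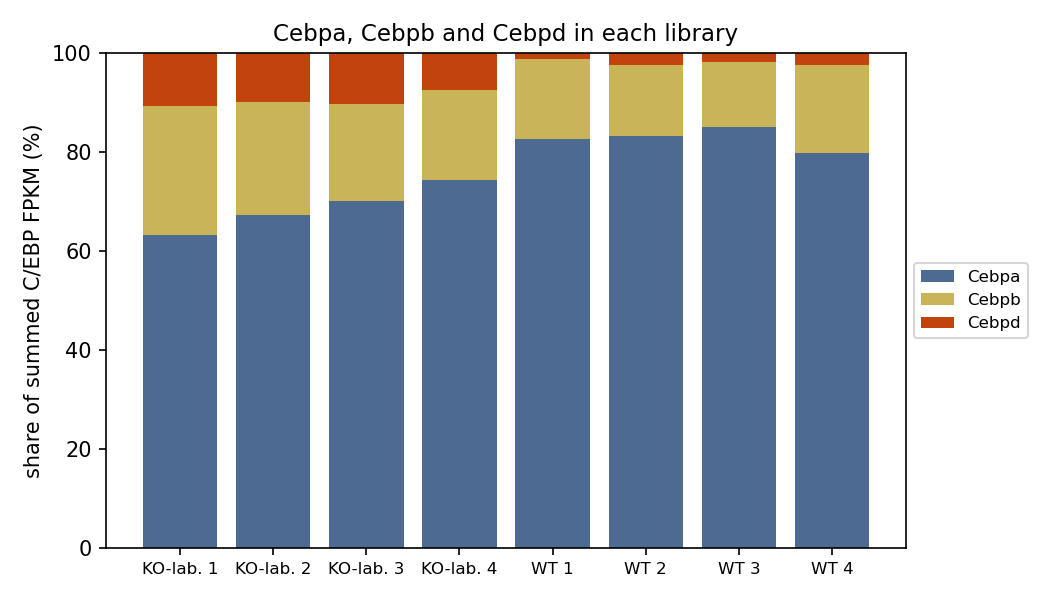
Share of Cebpa, Cebpb and Cebpd in their summed FPKM (%, axis from 0 to 100) in each KO-labelled and each WT library. Cebpd takes 7.56% to 10.7% in the KO-labelled libraries and 1.15% to 2.45% in the WT libraries.

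Ebf1 and Ebf2, which encode early B cell factors that bind and open adipocyte genes, went opposite ways. Ebf1 (chromosome 11, 44617317 to 45008091) had 10.8, 12.7, 15.1 and 13.3 FPKM in KO-labelled libraries 1 to 4, against 8.92, 8.22, 11.8 and 7.70 FPKM in WT. The groups overlapped only through KO-labelled library 1, which was below WT library 3. The log2 difference was 0.49 ± 0.14 (limma adjusted p = 0.0321). The call was lost without KO-labelled library 2, 3 or 4 or WT library 1, 2 or 4 (limma adjusted p = 0.0636 to 0.0891), without WT libraries 1 and 2 (0.206), without the replicates numbered 4 (0.106) and without a filter on low values (0.0625).

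Ebf2 (chromosome 14, 67233292 to 67430918) is known to mark beige and brown fat precursors. It had 2.24, 2.91, 3.05 and 2.75 FPKM in KO-labelled libraries 1 to 4, against 3.18, 4.02, 4.29 and 3.48 FPKM in WT. The groups did not overlap, but KO-labelled library 3 and WT library 1 were close. The log2 difference was -0.39 ± 0.12 (limma adjusted p = 0.0345). It was -0.17 with total scaling (limma adjusted p = 0.381) and -0.18 with read scaling (limma adjusted p = 0.266), both without a call. The call was also lost without KO-labelled library 1, 2 or 4 or WT library 2 or 3 (limma adjusted p = 0.0571 to 0.0852), and without WT libraries 1 and 2 (limma adjusted p = 0.0968) or the replicates numbered 4 (limma adjusted p = 0.0645). It was lost, too, without a filter on low values (limma adjusted p = 0.0667) and with array weights (limma adjusted p = 0.0567).

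Zfp423 encodes a zinc finger factor that commits precursors to the white fat fate and restrains beige genes in mature cells. It had 7.78, 8.15, 7.50 and 9.40 FPKM in KO-labelled libraries 1 to 4, against 9.77, 10.6, 10.1 and 8.25 FPKM in WT. KO-labelled libraries 1, 2 and 3 were below all WT libraries, and the replicates numbered 4 lay within the range of the other group. The log2 difference was -0.22 ± 0.10 (limma adjusted p = 0.120). Without WT library 4 it was -0.29 (limma adjusted p = 0.0401), and without the replicates numbered 4 of both groups -0.36 (limma adjusted p = 0.0121). With array weights on all 8 libraries it was -0.26 (limma adjusted p = 0.0368), but it was 0.04 with total scaling and 0.01 with read scaling.

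Klf15 encodes a Krüppel-like factor that induces the glucose transporter GLUT4 in fat cells and responds to fasting and glucocorticoids. It had 17.6, 14.9, 13.0 and 12.3 FPKM in KO-labelled libraries 1 to 4, against 13.4, 16.9, 13.3 and 9.24 FPKM in WT. The groups overlapped widely, and the ratio's 95% interval ran from 0.828 to 1.46 (log2 fold change 0.14 ± 0.18, limma adjusted p = 0.588).

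**Figure D3:**
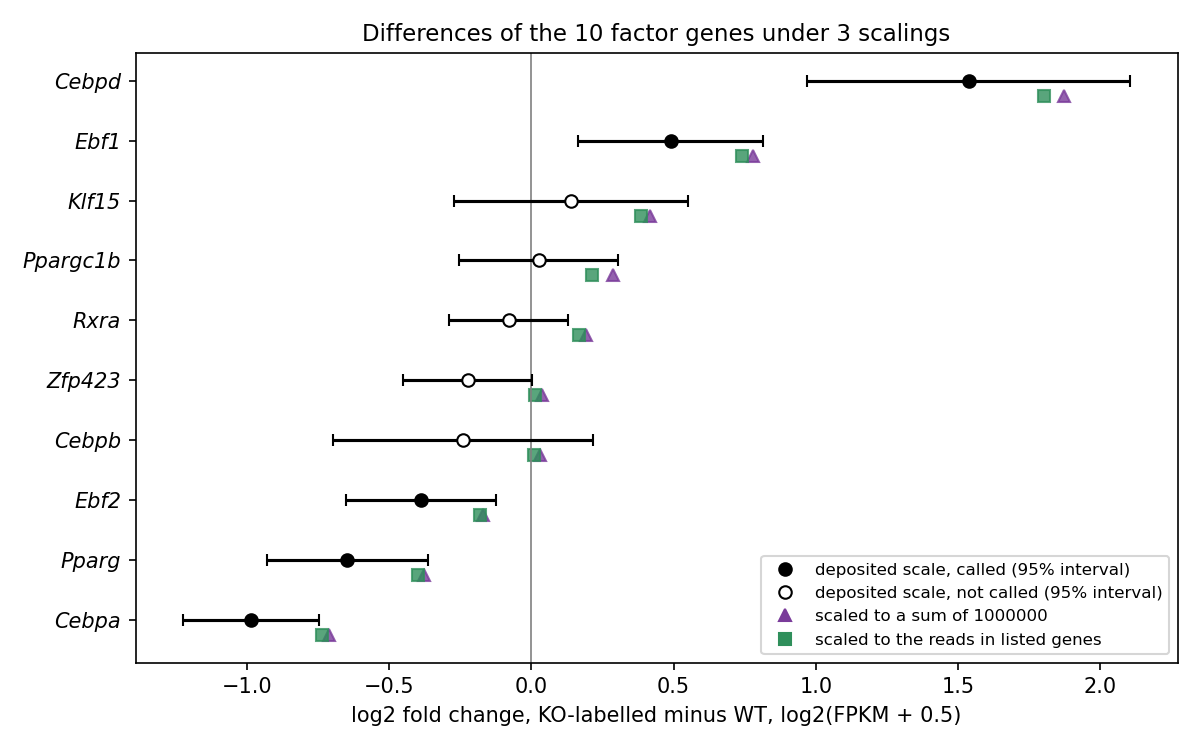
Log2 fold change of each factor gene, KO-labelled minus WT, on the log2(FPKM + 0.5) scale. Circles and bars are the limma estimates with 95% intervals on the deposited scale (filled where called), triangles the estimates with total scaling (1000000) and squares those with read scaling. The other scalings move every gene to the right, and Rxra, Zfp423 and Cebpb, none of them called, change sign.

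Ratios between members within a library, which scaling of the library leaves almost unmoved, were compared for 8 pairs. The pairs were chosen by role, but with earlier results of these data known. The tests were exact two-sided permutation tests over the 8 libraries, with adjustment over the 8 pairs. For 7 pairs the groups did not overlap (exact p = 0.0286 each, the smallest that 4 against 4 allows; adjusted p = 0.0327). Of all 14400 tested genes, 82.6% had groups that did not overlap when set over Cebpa in this way, 53.2% over Pparg, 36.2% over Ebf1 and 10.3% over Cebpb, so the count of pairs is no result about the members. Cebpd to Cebpa differed most, at 0.102 to 0.170 in KO-labelled libraries against 0.0140 to 0.0307 in WT libraries, as ratios of FPKM. On the log2 scale this was 2.52 higher, beside 1.78 for Cebpd to Cebpb and 0.75 for Cebpb to Cebpa. Klf15 to Cebpa was 1.13 higher on the log2 scale, and Rxra to Pparg 0.57 higher, at 0.655 to 0.871 in KO-labelled libraries and 0.425 to 0.608 in WT libraries. Ppargc1b to Pparg was 0.67 higher, but with a pseudocount of 0.1 its groups overlapped (permutation adjusted p = 0.0653). As ratios of FPKM with nothing added they overlapped too, at 0.0232 to 0.0342 in KO-labelled libraries and 0.0144 to 0.0252 in WT libraries. Ebf2 to Ebf1 was 0.88 lower on the log2 scale. Pparg to Cebpa overlapped, at 0.205 to 0.321 in KO-labelled libraries and 0.168 to 0.246 in WT libraries (exact permutation p = 0.143).

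FPKM is per length, so the levels of the genes can be ordered. In KO-labelled fat the order was Cebpa, Cebpb, Pparg, Rxra, Cebpd, Klf15, Ebf1, Zfp423, Ebf2 and Ppargc1b, and in WT it was Cebpa, Pparg, Cebpb, Rxra, Klf15, Zfp423, Ebf1, Cebpd, Ebf2 and Ppargc1b. Cebpa stood above all others in every library of both groups. Neighbours whose ranges overlapped were Cebpb and Pparg, Rxra and Cebpd, Cebpd and Klf15, and Klf15 and Ebf1 in KO-labelled fat, and Pparg and Cebpb and the run from Klf15 to Ebf2 in WT. Among tested genes, Cebpd was at the 89.1st percentile of mean FPKM in KO-labelled fat and the 64.0th in WT.

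The factors were also set against the adipocyte markers of the same library, whose mean log2 level was 7.57 in KO-labelled fat and 8.60 in WT, a difference of -1.03. A gene at the same level in both groups is therefore higher by about that much on this scale. The log2 level of Cebpa minus the mean log2 level of the 10 adipocyte markers was -0.51 ± 0.33 in KO-labelled fat and -0.55 ± 0.19 in WT (SD, n = 4 each), with overlapping groups. For Pparg it was -2.51 ± 0.13 in KO-labelled fat and -2.89 ± 0.34 in WT, again with overlap. Cebpd, Ebf1, Klf15, Ppargc1b, Rxra and Zfp423 were each higher relative to these markers in every KO-labelled library than in any WT library, by 0.80 (Zfp423) to 2.56 (Cebpd) on the log2 scale. The same held for 59.3% of all tested genes, close to these 6 of 10, and the differences of Rxra (0.95) and Ppargc1b (1.05) were near that of the markers with the sign turned. The markers are themselves targets of these factors in part, and the part of the tissue's makeup in these changes was not tested.

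Most of the listed targets of PPARγ and C/EBPα in fat cells were lower. Of 24 PPARγ targets, 17 fell and none rose (limma, with 20 and 0 at an unadjusted p under 0.05, and 17 and 0 by voom). Over all tested genes 18.6% fell and 11.7% rose. The median log2 fold change of the targets was -0.78, beside -0.02 over all tested genes and -0.84 for the 10 adipocyte markers. A fall of this size was thus not particular to the targets. The part of the tissue's makeup in the falls of either target list was not tested. Of the 24, 6 are also among the adipocyte markers or the C/EBPα targets, so these counts are not separate. The targets that fell included Cidec, which fuses lipid droplets, at 410 ± 60.5 FPKM in KO-labelled fat and 1445 ± 188 FPKM in WT (-1.82 ± 0.15). The lipase inhibitor gene G0s2 (-1.87 ± 0.22) and the monoglyceride lipase gene Mgll (-1.42 ± 0.15) fell as well (limma adjusted p at most 0.000602). Of the 7 that did not pass, the fatty acid translocase gene Cd36, chosen after its value was seen, stood at 1006 FPKM in KO-labelled fat and 990 FPKM in WT, the only one above 0 (0.02 ± 0.13, limma adjusted p = 0.941). Chosen in the same way, Pck1 (-0.07 ± 0.25) and Aqp7 (-0.08 ± 0.14) were near 0 too (limma adjusted p = 0.848 and 0.713). With either of the other scalings 13 fell and none rose, and without WT libraries 1 and 2 it was 8.

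Of 7 C/EBPα targets, 6 fell and none rose (6 and 0 unadjusted, 6 and 0 by voom), beside 18.6% and 11.7% of all tested genes. The target that did not pass, Cfd, differed by 0.45 ± 0.47 on the log2 scale (limma adjusted p = 0.492). Lep, the leptin gene, had 67.8 ± 11.1 FPKM in KO-labelled fat and 688 ± 106 FPKM in WT (-3.34 ± 0.16), and the desaturase gene Scd1 fell by 1.56 ± 0.22 on the log2 scale (limma adjusted p at most 0.00135). Adipoq, the adiponectin gene (-0.98 ± 0.18), and Fabp4, a fatty acid carrier (-0.86 ± 0.18), which are on both target lists, lost their calls without WT libraries 1 and 2 (limma adjusted p = 0.051 and 0.0848). Without those libraries 2 of the 7 fell, and without WT library 2 alone 4 fell and 1 rose. The 2 lists share these genes, and 5 of the 7 C/EBPα targets are on another list.

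Of 15 tested relatives of the 10 factors, 4 rose and 1 fell, beside 11.7% and 18.6% of all tested genes, with a median log2 fold change of 0.04, and in single-library omissions 2 to 3 rose. With total scaling 7 rose and 1 fell, beside 4226 and 1190 of all 14400 tested genes. Without WT libraries 1 and 2 it was 1 and 0 of the 15. Klf9, a Krüppel-like factor gene induced by glucocorticoids, had 38.7 ± 2.31 FPKM in KO-labelled fat and 22.5 ± 2.16 FPKM in WT (0.77 ± 0.09, limma adjusted p = 0.000600). Every KO-labelled library was above every WT library, the nearest being 35.3 FPKM in KO-labelled library 4 and 24.3 FPKM in WT library 4. Ppara, the gene of the receptor of fatty acid oxidation, rose at a low level, with 2.0 ± 0.525 FPKM in KO-labelled fat and 0.966 ± 0.294 FPKM in WT (0.77 ± 0.19, limma adjusted p = 0.0158). Its call was lost without WT libraries 1 and 2 (limma adjusted p = 0.104) and with a replicate block (limma adjusted p = 0.0661). Ppargc1a, of the related coactivator PGC-1α, also rose, at 0.841 ± 0.150 FPKM in KO-labelled fat and 0.422 ± 0.119 FPKM in WT (0.54 ± 0.16, limma adjusted p = 0.0306), a call lost under 10 of 21 alternatives, while Ppargc1b did not pass; the difference between these genes was not tested. Ebf3 fell, to 1.76 ± 0.228 FPKM in KO-labelled fat against 3.22 ± 0.558 FPKM in WT (-0.71 ± 0.13, limma adjusted p = 0.00435). So of the 3 tested EBF genes, Ebf1 rose and Ebf2 and Ebf3 fell, and all 3 calls were lost without WT libraries 1 and 2 (for Ebf3, limma adjusted p = 0.0567).

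Of 12 co-regulators of PPARγ, 6 rose and none fell (7 and 0 unadjusted, 6 and 0 by voom), beside 11.7% and 18.6% of all tested genes. The called rises were of 0.27 to 0.56 on the log2 scale. Ncoa3, a histone acetyltransferase coactivator gene, had 8.82 ± 0.801 FPKM in KO-labelled fat and 6.28 ± 0.744 FPKM in WT (0.46 ± 0.10, limma adjusted p = 0.00923). Tle3, a transducin-like cofactor of white fat genes, and Ep300, of the acetyltransferase p300, rose by 0.28 ± 0.07 and 0.37 ± 0.10. With either of the other scalings 10 of the 12 rose. Over all 14400 tested genes the number higher went from 1689 to 4226 with total scaling and 4202 with read scaling. The median log2 fold change of all these genes went from -0.02 to 0.24 and 0.20. Without WT libraries 1 and 2 none of the 12 passed, and in single-library omissions 2 to 6 rose.

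Of 11 other tested factors that favour adipogenesis, 3 rose and none fell (5 and 0 unadjusted, 4 and 0 by voom): Klf9, Nfia (0.32 ± 0.10) and Stat5b (0.22 ± 0.07, limma adjusted p = 0.0461). Over all tested genes 11.7% rose and 18.6% fell. Klf9 is also counted above among the relatives. With either of the other scalings 6 of the 11 rose and none fell. Of all 14400 tested genes, 4226 rose with total scaling and 4202 with read scaling. Of 9 tested inhibitors, 1 rose and none fell (1 and 0 unadjusted, 1 and 0 by voom). That was Foxo1, a forkhead factor gene restrained by insulin, at 11.6 ± 1.54 FPKM in KO-labelled fat and 8.90 ± 1.15 FPKM in WT (0.36 ± 0.12, limma adjusted p = 0.0485), and the groups overlapped. With total scaling 4 of the 9 inhibitors rose and with read scaling 3, and none fell. Each of these lists, of favouring factors and of inhibitors, has 12 genes, of which 4 are also on another list. Of 8 genes on a list of PGC-1α and its partners in mitochondrial gene control, 2 rose and none fell (2 and 1 unadjusted, 2 and 1 by voom). Of these, Ppargc1a is the gene of PGC-1α itself and is also counted above among the relatives and the co-regulators. The other was Tfam, the mitochondrial transcription factor gene (0.31 ± 0.10, limma adjusted p = 0.0378). In single-library omissions 0 to 1 of the 8 rose. The calls of Nfia, Stat5b, Foxo1 and Tfam were each lost without WT libraries 1 and 2 and in several single-library omissions.

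**Figure D4:**
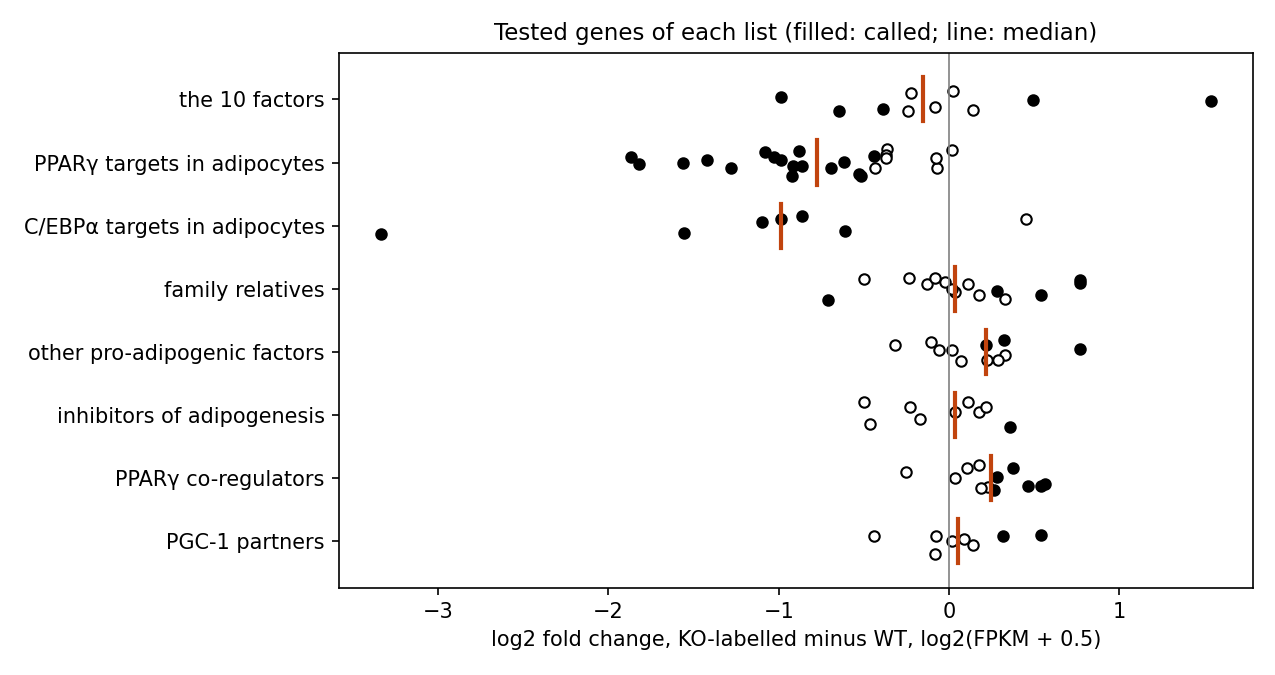
Log2 fold change, KO-labelled minus WT, of each tested gene of the 10 factors and of 7 related lists. Filled points are called genes and vertical lines the list medians, -0.78 for PPARγ targets and 0.25 for PPARγ co-regulators. A gene on more than 1 list is drawn in each, and the list of PGC-1 partners holds Ppargc1a itself.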

How the data were processed

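Poly(A) RNA of 8 fat libraries was sequenced. The authors deposited FPKM values for 28295 genes; the submitters' processing notes list HISAT2 2.0.5, featureCounts and mm10, with no annotation release. Symbols were matched by ID (99.9% matched); exon lengths and positions are from GENCODE M21. FPKM values multiplied by these lengths stepped in whole reads (97.9% of values between 0.5 and 200 reads lay within 0.02 of a whole number), which gave depth. That number of reads limits the precision of low genes.

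Values were tested as log2(FPKM + 0.5) in genes whose mean FPKM reached 0.5, with limma 3.58.1 (R 4.3.3; trend, robust moderation, two-sided, Benjamini-Hochberg). This scale understates the change of low genes. The fit was tested on simulated data. The labels do not tie libraries to separate animals, so p-values measure the spread between these libraries. Members, lists and tests were chosen with earlier results of these data known. Named were the 10 factors, Cul3 and up to 4 called genes per list by adjusted p, or the 2 highest where none was called. With 1 exception, not reported here, the genes named by this rule were eligible for the text. Alternatives were other pseudocounts, filters, scalings and moderation, voom on recovered reads, a replicate block and omitted libraries; scaling to reads in listed genes and omission of the replicates numbered 4 were added after the data were seen. Python 3.11.15, scipy 1.17.1 and matplotlib 3.10.9 made tables and plots.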

Additional observations from a re-analysis of the deposited data

Results flagged for a closer look

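Of 50 groups of 4 libraries checked (the 10 factors, Cul3 and 14 list means in each group), 2 had a library farther from the rest than Dixon's 95% limit allows; chance alone flags about 1 in 20 groups. The mean log2 level of the adipocyte markers was 7.97 in KO-labelled library 4 and 7.41 to 7.46 in the other KO-labelled libraries. The mean log2 level of the macrophage markers was 4.90 in WT library 4 and 3.51 to 3.67 in the other WT libraries. Both values lie towards the other group. In the same libraries, Pparg was the highest of the KO-labelled group (40.1 FPKM) and the lowest of WT (47.3 FPKM). Without both libraries the log2 fold changes were -0.78 for Pparg, -1.02 for Cebpa and 1.79 for Cebpd, each still called (limma adjusted p = 0.0024, 0.000631 and 0.00296).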

How the results depend on the processing

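Over 22 alternatives, Pparg, Cebpa and Cebpd kept direction and call: their log2 fold changes ran from -0.78 to -0.38, -1.05 to -0.69 and 1.35 to 1.87. Factors called higher numbered 1 instead of 2 without a filter, without WT libraries 1 and 2 and without the replicates numbered 4, and 1 to 2 in single-library omissions, where 2 to 4 were lower. Over all genes, 1689 were higher and 2683 lower; this became 4226 and 1190 with total scaling (1000000), 4202 and 1267 with read scaling, 722 and 1036 without WT libraries 1 and 2, and 2026 and 2694 without the replicates numbered 4. The cause was not tested. Single-library omissions gave 1089 to 1937 higher and 1858 to 2803 lower. Of genes on the 14 lists, 18 were higher and 34 lower; 32 were higher under either scaling, 4 higher and 16 lower without WT libraries 1 and 2, 17 higher and 41 lower without the replicates numbered 4, and 8 to 20 higher and 23 to 37 lower in single-library omissions. Cul3 was called at 0.37 with total scaling and 0.34 with read scaling (limma adjusted p = 0.0477 and 0.0396), and not otherwise (0.03 to 0.15 in single-library omissions). The ratio of Ppargc1b to Pparg was 0.69 with a pseudocount of 0.1, without a call. With libraries omitted or paired, the permutation test cannot pass 0.05 (smallest p 0.0571, or 0.125 for 4 pairs). Each log2 ratio moved by less than the larger of its SDs in the 2 groups. Cebpd to Cebpb, 1.78 with all libraries and 1.53 without WT library 1, moved by more than its SD in KO-labelled fat (0.154). Same-numbered libraries did not deviate together (r -0.32 to 0.17, across genes; 1 of 4 correlated best with its own number), so the numbers were not taken as pairs. With a replicate block, 1113 genes were higher and 1995 lower, 8 list genes were higher, and the 5 factor calls stood. Ppargc1b, at 76 to 128 reads, is the gene most limited by depth.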
